A study of Mus musculus with 2 samples.

Results

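Open chromatin around 9 genes that encode chromatin regulators with known roles in the heart was read from ATAC-seq (transposase insertion into accessible DNA) of wildtype mouse hearts at E11.5. The genes were chosen by name among 21755 protein-coding genes of chromosomes 1 to 19 and X in GENCODE M21 on GRCm38. *Smyd1* and *Smarcd3* formed the muscle-restricted group of 2. The other 7, *Smarca4*, *Chd4*, *Chd7*, *Kmt2d*, *Hdac9*, *Hdac2* and *Ezh2*, were taken as the widely used regulators, although *Hdac9* is itself known to be expressed more strongly in muscle and brain than in many tissues. Both replicates came from FVB embryos of WT genotype, and each was prepared from 2 whole hearts. There was no treated or mutant group, so no comparison between conditions was made. The replicates form 1 group of 2 pooled samples.

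Chromatin regulators act on nucleosomes in several ways. BAF complexes and CHD proteins use ATP to move or evict nucleosomes, histone methyltransferases such as KMT2D and EZH2 write activating or repressive marks, and histone deacetylases remove acetyl groups. Most of these enzymes work in nearly every cell and are transcribed from promoters rich in CpG, while a few, among them SMYD1 and the BAF subunit BAF60C, are concentrated in heart and skeletal muscle.

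The data are 2 lists of peaks that the authors called with MACS2, 118027 in replicate 1 and 114783 in replicate 2. Stretches covered by a peak in both lists gave 98924 shared regions, of which 174 lay in the gene bodies of the 9 genes or within 50 kb on either side. Fold enrichment compares the read pileup at a peak's summit with the average pileup expected across the genome (each raised by 1), and is given in the order replicate 1, replicate 2. It is a level of accessibility in a mixed tissue, in which a larger share of open nuclei and wider opening in each nucleus cannot be told apart. The background was 2.68 reads in replicate 1 and 2.98 in replicate 2, which made the summit pileups recoverable as whole reads. All 10 cardiomyocyte marker genes examined had a shared region at a start, as did 5 of 5 markers of endothelium and endocardium, 4 of 4 of epicardium and 4 of 4 of blood. Of the markers foreign to the heart, 1 of 4 for skeletal muscle (*Myod1*, at 5.21), 2 of 4 for neural cells and 0 of 3 for liver had one, beside 68.1% of all protein-coding genes. With so few genes in a list and so high a share of all genes, these counts describe the marker genes only. Whole hearts hold several cell types, and the part of each in the values of the 9 genes was not tested.

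Base composition most plainly set the *Smyd1* start apart from the strongest starts of the other 8 genes. For this reason, the sequences beneath the summits are shown first. They are the start and intronic regions of the muscle-restricted genes, the start of *Ezh2* as the strongest start of all 9, and the strongest region away from a coding start, upstream of *Chd7*, which was added after its value was seen. All are the plus strand of GRCm38 (RefSeq reference), with 100 bp on each side of the midpoint of both summits unless said otherwise. The *Ezh2* window was shortened to leave out an annotated exon. For the broad *Smarcd3* start region, whose summits lay 995 bp apart, a window at each replicate's summit is given. Capitals mark letters that match CCAAT (NFY), CAGCTG (an E-box), GGAATG (TEAD), GGGCGG (SP/KLF) or the CArG box on either strand, with overlapping matches joined.
*Smyd1* start, chr6:71262317-71262517: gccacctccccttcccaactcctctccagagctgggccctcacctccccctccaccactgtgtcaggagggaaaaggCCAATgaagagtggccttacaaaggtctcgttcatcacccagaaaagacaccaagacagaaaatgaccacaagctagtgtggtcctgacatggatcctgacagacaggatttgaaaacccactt
*Smyd1* intron, 34.9 kb downstream of the start, chr6:71227250-71227450: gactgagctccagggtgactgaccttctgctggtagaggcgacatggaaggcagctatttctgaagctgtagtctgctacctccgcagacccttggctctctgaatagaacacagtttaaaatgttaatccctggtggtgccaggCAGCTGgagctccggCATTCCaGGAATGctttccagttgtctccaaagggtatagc
*Smyd1* intron, 13.4 kb downstream of the start, chr6:71248793-71248993: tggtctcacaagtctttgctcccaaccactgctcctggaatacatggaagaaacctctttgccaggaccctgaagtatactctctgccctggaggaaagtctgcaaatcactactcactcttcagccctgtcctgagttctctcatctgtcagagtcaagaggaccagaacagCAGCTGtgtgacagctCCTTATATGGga
*Smarcd3* start, replicate 1 summit, chr5:24602023-24602223: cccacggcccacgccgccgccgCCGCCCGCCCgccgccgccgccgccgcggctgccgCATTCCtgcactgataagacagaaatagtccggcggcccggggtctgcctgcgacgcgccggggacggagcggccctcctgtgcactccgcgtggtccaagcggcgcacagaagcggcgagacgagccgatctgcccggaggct
*Smarcd3* start, replicate 2 summit, chr5:24603018-24603218: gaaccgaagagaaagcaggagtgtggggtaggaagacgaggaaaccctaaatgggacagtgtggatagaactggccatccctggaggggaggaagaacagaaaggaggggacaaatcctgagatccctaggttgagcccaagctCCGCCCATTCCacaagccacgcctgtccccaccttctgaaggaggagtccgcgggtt
*Smarcd3* intron, 2.87 kb upstream of the start, chr5:24604781-24604981: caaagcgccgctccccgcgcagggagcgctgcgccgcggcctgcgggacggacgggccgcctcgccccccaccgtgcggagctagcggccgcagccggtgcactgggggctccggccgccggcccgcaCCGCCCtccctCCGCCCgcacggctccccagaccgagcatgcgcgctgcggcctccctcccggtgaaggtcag
*Ezh2* start, chr6:47595060-47595182: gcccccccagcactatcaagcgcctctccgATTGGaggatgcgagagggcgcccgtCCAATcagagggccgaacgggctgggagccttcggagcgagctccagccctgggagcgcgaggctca
Intergenic region 43.0 kb upstream of *Chd7*, chr4:8647301-8647501: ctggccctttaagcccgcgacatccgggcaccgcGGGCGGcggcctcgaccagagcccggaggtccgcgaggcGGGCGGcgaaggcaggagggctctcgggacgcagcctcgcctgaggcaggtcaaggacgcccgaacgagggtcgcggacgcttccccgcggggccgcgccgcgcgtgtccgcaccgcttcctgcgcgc

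The *Smyd1* start window held 1 CpG and the 2 intronic windows held 3 and 0. The window at the replicate 1 summit of *Smarcd3* held 33 CpGs, the one at the replicate 2 summit 6, and its intronic window 31. The *Ezh2* window held 11 in 123 bp, and the window upstream of *Chd7* held 34. Among the printed windows, those of *Smyd1* resembled one another in being poor in CpG, while those of *Smarcd3* differed among themselves, with a GC content of 76.1% at the replicate 1 summit of the start, 56.7% at its replicate 2 summit and 80.6% in the intron. In the *Smyd1* intron at 34.9 kb, an E-box stood at position 146 from the left end and 2 TEAD letter strings at positions 161 and 168 stood on opposite strands, pointing away from each other, with 1 base between them. In the *Smyd1* intron at 13.4 kb, an E-box at position 174 was followed by a CArG box, the letters that bind serum response factor, at position 190, near the window's end. No window at a replicate 2 summit of the muscle-restricted genes' distal regions held a CArG box. TEAD letters were held by 14.8% of the 98850 windows of the same length at all shared regions of chromosomes 1 to 19 and X, the E-box by 17.8%, CCAAT by 21.1%, SP/KLF letters by 15.2% and the CArG box by 1.17%. A match describes letters in a window and is neither a binding site nor a cause of accessibility.

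Each of the 9 genes had a shared region within 1 kb of at least 1 annotated start, against 68.1% of all protein-coding genes. At the strongest start region of each, mean fold enrichment over both replicates ran from 40.7 at *Ezh2* to 17.7 at *Hdac9*, and the muscle-restricted genes stood low in this order. Among the 14820 protein-coding genes with a start region the median was 24.5, with quartiles of 14.2 and 33.5. A percentile is given below as the share of all 21755 genes with a lower value at their starts, where genes without a start region count as 0. Among the 14820 genes with a start region the percentiles are lower. They were 39.1 for *Smarcd3*, 36.2 for *Kmt2d*, 35.7 for *Smyd1* and 32.5 for *Hdac9*, and 89.5 for *Ezh2*.

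*Ezh2*, the methyltransferase of Polycomb repressive complex 2, had 40.5 and 41.0 (148 and 162 reads at the summit), at percentile 92.8. *Hdac2*, a class I histone deacetylase of the NuRD and related complexes, had 35.9 and 38.5, at percentile 88.5. *Chd7*, the remodeller whose mutation causes CHARGE syndrome with heart defects, had 29.9 and 35.7, at percentile 81.7. These values lay above the all-gene median in both replicates.

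*Smarca4*, which encodes the BAF ATPase BRG1, had 30.7 and 32.2, at percentile 79.2. *Chd4*, the ATPase of the NuRD complex, had 23.9 and 27.9, on both sides of the median, at percentile 68.8. *Smarcd3*, which encodes BAF60C, had 22.5 and 18.4, at percentile 58.5. It was the only one of the 9 genes for which replicate 1 was the higher.

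*Kmt2d*, a methyltransferase for histone H3 lysine 4 at enhancers, had 19.3 and 19.4, at percentile 56.5. *Smyd1*, a methyltransferase needed for cardiac and skeletal myofibre maturation, had 18.2 and 20.1 (66 and 79 reads), at percentile 56.2. *Hdac9*, a class IIa deacetylase that restrains MEF2 factors, had 17.4 and 18.1, at percentile 54.0. These last 3 genes lay below the median of genes with a start region in both replicates.

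In the order of the means, the replicate ranges of *Chd7* and *Smarca4* overlapped, as did those of *Smarcd3* and *Kmt2d* and of *Kmt2d* and *Smyd1*. The other neighbours lay apart, although their 95% Poisson counting intervals, which cover counting error only, overlapped in each replicate. For *Smyd1* that interval was 14.1 to 23.1 in replicate 1 and 16.0 to 25.0 in replicate 2, and for *Hdac9* it was 13.4 to 22.2 and 14.2 to 22.8. For *Ezh2*, at 34.3 to 47.5 and 34.9 to 47.8, neither interval reached those of *Smyd1*. The median of the muscle-restricted genes was 11.6 below that of the other 7, and 5 of the 7 were above both *Smyd1* and *Smarcd3*. The ranges nevertheless overlapped, since *Hdac9* lay below both and *Kmt2d* between them, and 2 genes allow no test.

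**Figure D1:**
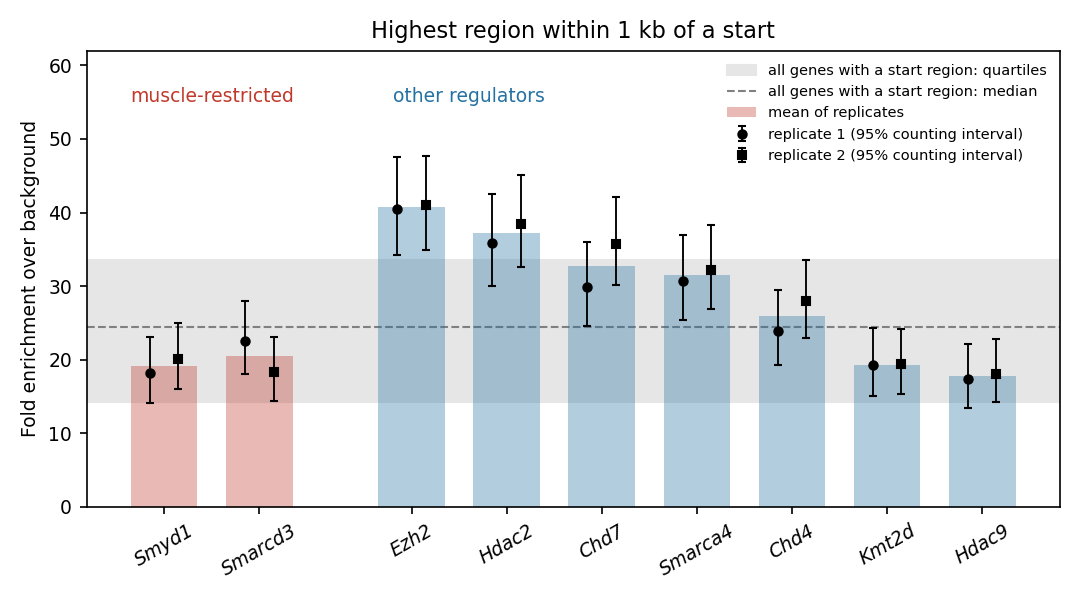
Fold enrichment (linear axis from 0) at the strongest shared region within 1 kb of a start, with the 2 replicates as points, their mean as bars and 95% counting intervals, and the quartiles and median of all genes with a start region as a grey band and dashed line. Both muscle-restricted genes sit under the dashed line at 24.5 in each replicate, level with *Kmt2d* and *Hdac9*, while *Ezh2* and *Hdac2* rise above the band.

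The place of the summit differed between genes. Distances were taken from the annotated start nearest to the midpoint of the summits, so that closeness follows in part from this choice. At *Smarca4*, *Chd4*, *Chd7*, *Smyd1*, *Hdac9*, *Hdac2* and *Ezh2* both summits lay at most 244 bp from that start. At *Hdac9* it is a retained-intron start of GENCODE, and the nearest coding start of GENCODE with a region lies 378 kb downstream. RefSeq places an mRNA start of *Hdac9* within 1 kb of the upstream region. At *Smarcd3* the replicate 1 summit lay 111 bp upstream of the start at 24602012 and the replicate 2 summit 1106 bp upstream, within a region of 2402 bp. At *Kmt2d* the summits lay 974 and 966 bp upstream, nearer the annotated starts of the noncoding genes *5730414N17Rik* and *Gm49437*, which also lie in the region. A single replicate 1 peak there spanned 3 shared regions, of which the one that covers the *Kmt2d* start had 19.4 in replicate 2 and the other 2, inside the gene, had 6.79 and 5.53. With a reciprocal overlap of 50% required, no region was left at this start, and the only *Kmt2d* start with one was the internal start at 98837164, with a mean of 5.45. The value of 19.3 is therefore that of a region held in common with these noncoding starts. The *Ezh2* start region also has a noncoding RefSeq start within 1 kb, of *F830010H11Rik*, and the *Chd4* one that of the microRNA gene *Mir7045*. There the summits lay 99 and 105 bp from the *Ezh2* start, and 55 bp from the *Chd4* start in both replicates.

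The 9 genes have 61 distinct annotated transcript starts, of which 37, or 26 of 36 starts of coding transcripts and 11 of 25 of others, had a shared region within 1 kb, against 58.2% of all starts of protein-coding genes. Starts that lie close together share a region, so these 37 starts fell on 20 regions. None of the 24 remaining starts had a peak in either replicate alone. *Smarca4* was the only one of the 9 with a shared region at each of its starts, against 29.0% of all genes.

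*Smyd1* (chr6:71213940-71322233, minus strand) had a region at 3 of 6 starts. The 3 starts lie between 71262232 and 71262281 and share the region chr6:71262050-71263053, of 1004 bp, the shortest start region of the 9. The internal start at 71216874 had none. The same held for the upstream starts at 71322206 and 71322233, which extend the gene about 60 kb across *Krcc1* (a gene for a lysine-rich coiled-coil protein). The *Krcc1* start, 9.30 kb upstream of the main *Smyd1* start and inside this extended gene body, had 40.2 and 39.0, above the *Smyd1* start in both replicates.

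*Smarcd3* (chr5:24590818-24624411, minus strand) had a region at 8 of 9 starts, in 4 regions. Apart from the main one at chr5:24601076-24603477, the farthest upstream start of a coding transcript, at 24624411, had a weak region with 6.79 and 6.03. The starts of retained-intron transcripts inside the gene had regions with 10.1 and 7.04 and with 6.25 and 7.29. Only the start at 24623136, of a transcript with no coding frame, had none. Thus both coding starts of *Smarcd3* were accessible, with a mean of 20.4 at the internal and 6.41 at the upstream one.

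*Hdac9* (chr12:34047580-34917095, minus strand) had regions at 4 of 7 starts, in 2 places 378 kb apart. The upstream one, with 17.4 and 18.1, lies at the start of a retained-intron transcript, with a CpG ratio of 0.872. The internal one, chr12:34527663-34529435, serves 3 starts of coding transcripts and had 15.2 and 14.8. The replicate ranges of the 2 regions did not overlap. The 1 kb around the internal summit had a CpG ratio of 0.20 against 0.96 at the upstream summit.

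Of the other regulators, *Chd7* had a region at 6 of 8 starts, *Chd4* at 4 of 7, *Kmt2d* at 3 of 5, *Hdac2* at 2 of 4 and *Ezh2* at 4 of 12. In each, the strongest was at the 5′ cluster of starts and the others were weak or without a region. The second *Smarca4* start region, inside the gene, had 3.80 and 4.02, and the third *Chd7* region, near the start of Chd7-208, had 9.24 and 7.54. The *Ezh2* region near its most 3′ start had 5.70 and 3.77.

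At the start nearest its strongest start region, *Smyd1* differed in base composition from the other 8 genes. The ratio of observed to expected CpG in the 1 kb at the *Smyd1* start was 0.238, at percentile 24.6, and the GC content was 50.8%. *Smarcd3* had 0.806 and 67.1%. At their strongest starts the widely used regulators ran from 0.740 at *Chd4* to 1.14 at *Chd7*, with *Smarcd3* among them. The internal start region of *Hdac9*, which serves coding transcripts, was also poor in CpG. In the 1 kb around its summits the ratio was 0.197 and the GC content 45.2%, beside 0.233 and 49.7% around those of *Smyd1*. The median of all protein-coding genes was 0.601, and the 10 cardiomyocyte marker genes ran from 0.100 (*Myh6*) to 0.726 (*Ryr2*), with a median of 0.222. Low medians were not particular to them, since the blood markers had 0.169 and the endothelial and endocardial ones 0.315. *Smyd1* lay within the cardiomyocyte range and *Smarcd3* above it. The start fold enrichment of the 2 muscle-restricted genes nevertheless differed by less than the spread between the replicates of *Smarcd3*.

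**Figure D2:**
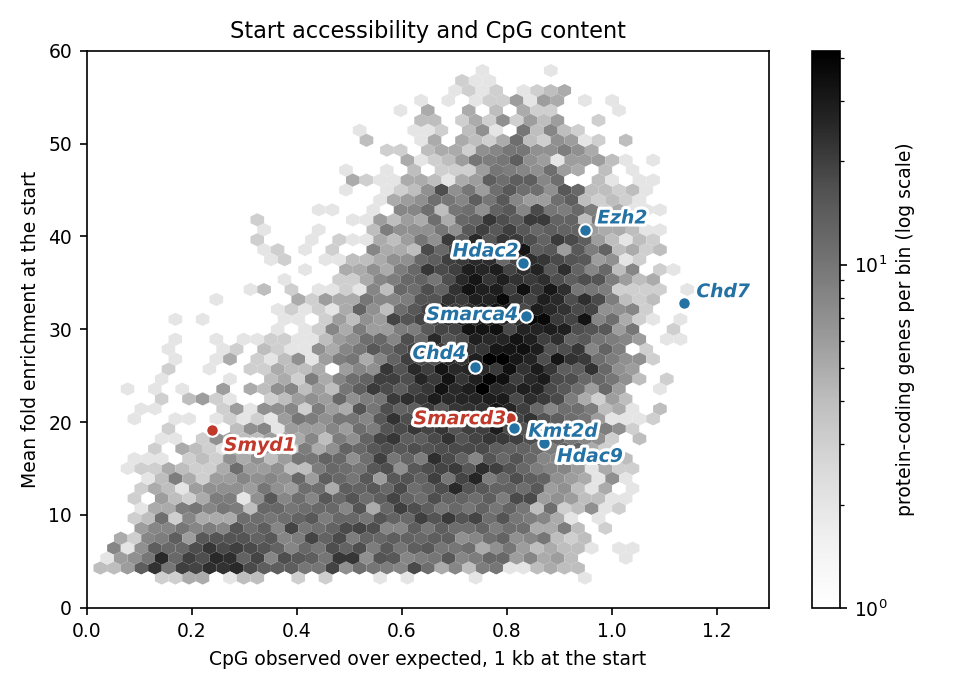
Mean fold enrichment of both replicates at the start (y axis) against the ratio of observed to expected CpG in 1 kb at the start (x axis), with all protein-coding genes that have a start region as grey bins on a log count scale and the 9 genes as coloured points. *Smyd1* lies alone at the left at 0.238, and the other 8 lie between 0.740 and 1.14. Each gene is shown only at the start nearest its strongest region, so the CpG-poor internal start region of *Hdac9* is not plotted.

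Around the genes, the number of shared regions ran from 2 at *Hdac2* to 54 at *Chd7*. Of the 174 regions, 20 were at a start of the gene itself, 25 at the start of another protein-coding gene, 84 in introns and 8 in exons of the gene, 12 in the body of another gene and 25 between genes. No region was counted for more than 1 gene. The 129 regions without a protein-coding start within 1 kb are called distal here. All 9 genes had at least 1, against 83.9% of all protein-coding genes.

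*Smyd1* had 16 regions in 208 kb, 7.68 per 100 kb, at percentile 67.1 of the same intervals of all genes. *Smarcd3* had 15 in 134 kb, 11.2 per 100 kb, at percentile 85.2. *Chd7*, *Kmt2d* and *Chd4* were denser, with 19.5, 15.8 and 15.6 per 100 kb, at percentiles 98.4, 95.5 and 95.2. *Smarca4* had 5.85, close to the all-gene median of 5.46. *Hdac9*, *Ezh2* and *Hdac2* were sparse, with 2.99, 2.42 and 1.57.

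The density of *Chd4* and *Kmt2d* came largely from neighbouring genes. At *Chd4*, 11 of 21 regions were at starts of other coding genes, *Gapdh* and *Iffo1* among them, and 9 were distal. At *Kmt2d* 10 of 22 were distal. By distal regions alone the muscle-restricted genes stood beside them, with 6.72 per 100 kb at *Smyd1*, 5.99 at *Smarcd3*, 6.69 at *Chd4* and 7.17 at *Kmt2d*, at percentiles from 79.0 to 85.3. *Chd7* had 18.4, at percentile 99.7. *Hdac2* had 0.785 and *Ezh2* 1.21, below the all-gene median of 2.89. The 2 strongest starts, *Ezh2* and *Hdac2*, thus had the fewest distal regions per 100 kb, while *Chd7*, with the next strongest, had the most.

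The muscle-restricted median of regions per 100 kb was 3.61 above that of the other 7, but the ranges overlapped and the direction depended on the interval. With 10 kb on each side the difference was 11.6, and with 100 kb it was -0.64. In replicate 2 alone it fell to 1.08, and *Smyd1* itself had 21 peaks in replicate 1 and 15 in replicate 2.

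**Figure D3:**
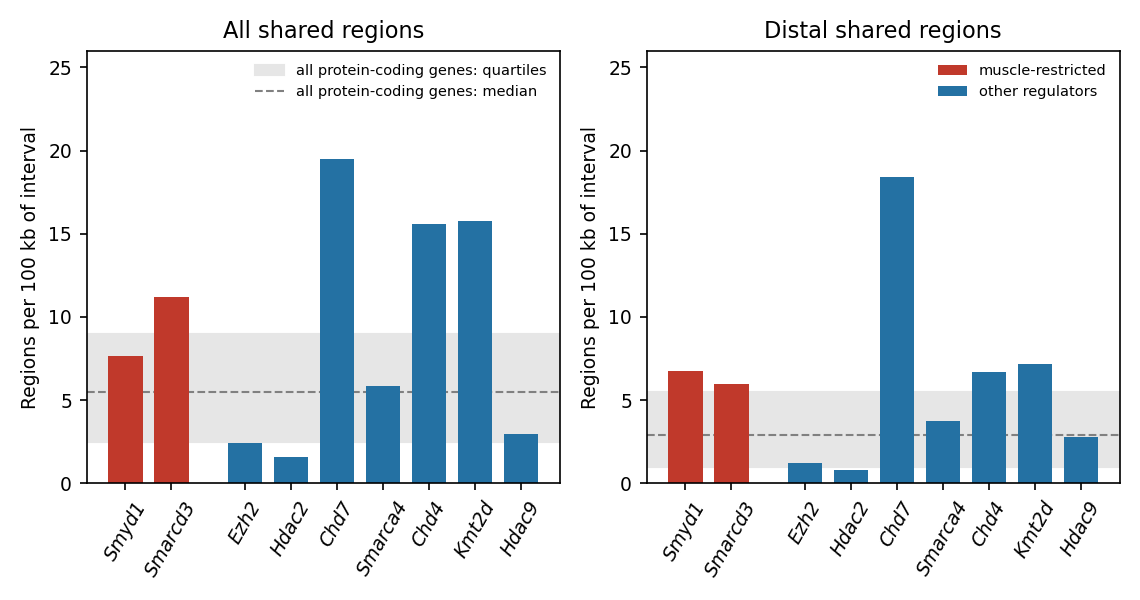
Shared regions (left) and distal shared regions (right) per 100 kb of gene body plus 50 kb on each side, for the 9 genes as bars from 0, with the quartiles and median of all protein-coding genes as a grey band and dashed line. *Chd7* reaches 18.4 distal regions per 100 kb, *Smyd1* and *Smarcd3* sit just above the band, and *Hdac2* and *Ezh2* sit in its low part or beneath it.

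Inside the *Smyd1* interval, the 14 distal regions lay on the gene body and downstream of it, and the 50 kb upstream of the extended gene body had no region. The strongest, chr6:71226104-71227812, an intron 34.9 kb downstream of the start and 1709 bp long, had 22.5 and 17.1, at percentile 97.4 of all distal regions. Its mean of 19.8 was 1.03 times that of the *Smyd1* start, and its replicates lay on both sides of those of the start. The next 2, also intronic, had 13.3 and 9.30 at chr6:71248643-71249191 and 10.9 and 11.1 at chr6:71259845-71260453, 2.05 kb downstream of the start. The remaining 11 had means from 4.19 to 7.37, and 4 of the 14 passed a q-value limit of 1e-10 in both replicates.

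Inside the *Smarcd3* interval, 4 of the 8 distal regions lay within 10 kb of the main start. The strongest, chr5:24604206-24605309, lies in the intron between the upstream and the main coding start and had 16.6 and 14.8, at percentile 94.6 of distal regions. The region beside it, chr5:24605576-24605856, carries the same replicate 1 peak and so its value of 16.6, but had only 3.02 in replicate 2. A RefSeq start of *Smarcd3* lies within 1 kb of this second region. The third, chr5:24591165-24591630, in an exon near the 3′ end, which also lies in *Chpf2* and at the start of the microRNA gene *Mir671*, had 8.15 and 7.29. The other 5 had means from 3.53 to 6.12.

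*Chd7* had 51 distal regions, most of them in its introns, and 8 of them had a mean of at least 10. The strongest lay outside the gene, at chr4:8646817-8648878, with 43.2 and 39.97 (158 reads at the summit in each replicate). It was 43.0 kb upstream and had no protein-coding start within 1 kb, but a noncoding RNA of RefSeq, *Gm8273*, starts there. It stood at percentile 99.9 of distal regions and at 1.27 times the mean of the *Chd7* start, and its 1 kb had a CpG ratio of 1.02. The next were intronic, chr4:8724564-8726564 with 20.6 and 17.1 and chr4:8703893-8704930 with 12.5 and 18.9. Over the gene body *Chd7* had 24.8 regions per 100 kb. At a q-value limit of 1e-10, 19 of the 51 distal regions were left.

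*Hdac9* had 29 regions, all in its gene body of 870 kb, and none in either flank. All 27 distal regions lay over 50 kb from the upstream start. The strongest, chr12:34516748-34517482, had 14.1 and 11.3 and lies downstream of the internal start region described above. Next came chr12:34305231-34305884 with 14.1 and 8.80 and chr12:34444752-34445148 with 11.1 and 8.80. Replicate 1 was the higher for each of these 3.

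At *Chd4*, a region in the neighbouring gene *Lpar5* (chr6:125081513-125082223) had 22.3 and 23.1, an intergenic one 6.93 kb upstream (chr6:125088481-125090430) had 20.1 and 18.9, and a coding exon (chr6:125104213-125104972) had 14.7 and 19.1. All 3 stood above percentile 95 of distal regions. The distal regions inside *Smarca4* had means of 3.89 and 3.27, and its higher ones lay in the flanks, whose positions are not reported here. Which gene a flanking region acts on was not measured.

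At *Kmt2d* the strongest distal region, chr15:98891925-98892599, within annotated transcripts of *Dhh* and *Rhebl1*, had 11.4 and 12.6. The next 2, chr15:98891343-98891780 and chr15:98896844-98897160, had 5.43 and 4.07 in replicate 1 and share long replicate 2 peaks with their neighbours. A RefSeq start of *Dhh* lies within 1 kb of the latter. In all, 9 of the 129 distal regions had a RefSeq start within 1 kb, most of them of noncoding RNAs. The single distal region of *Hdac2*, chr10:37014301-37014636, had 7.33 and 6.79. The 2 of *Ezh2* had 6.25 and 7.54, within *Cul1*, and 4.89 and 4.53, in an *Ezh2* intron.

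**Figure D4:**
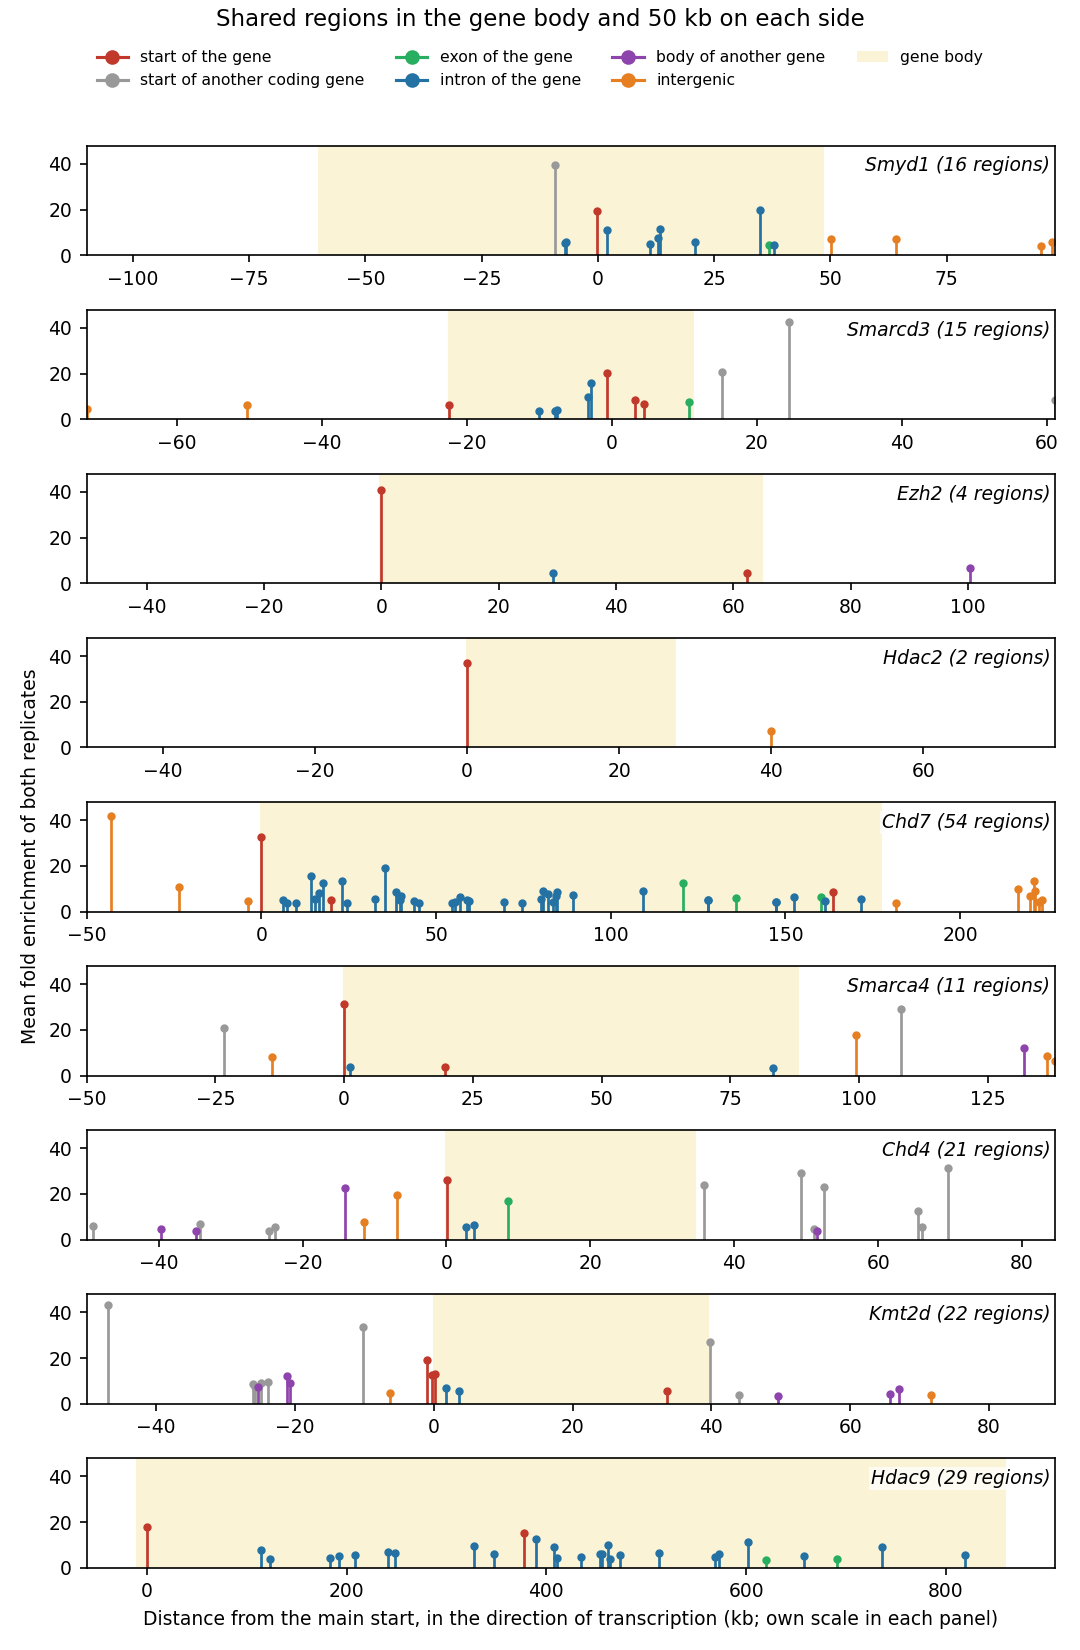
Mean fold enrichment of both replicates (y axis, 0 to 48) of each shared region against its distance from the main start in kb (x axis, own scale in each panel), coloured by place, with the gene body shaded. *Ezh2* and *Hdac2* show 1 tall start with little around it, *Smyd1* and *Smarcd3* show several intronic regions, and *Chd7* has 54 regions and a taller region 43.0 kb upstream.

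The highest distal mean, set over the mean at the start, was 1.03 for *Smyd1* and 0.768 for *Smarcd3*, against 0.169 for *Ezh2*, 0.190 for *Hdac2*, 0.569 for *Smarca4*, 0.621 for *Kmt2d*, 0.717 for *Hdac9*, 0.876 for *Chd4* and 1.27 for *Chd7*. The ranges again overlapped. The muscle-restricted median of the highest distal value was 5.04 above that of the other 7, became 0.018 when only starts of coding transcripts were counted, which made the upstream *Hdac9* region distal, and was -4.42 with flanks of 100 kb. Over all distal regions the medians were close, 5.87 for the 22 of the muscle-restricted genes and 5.91 for the 107 of the others, beside 5.74 for all distal regions. Of the 22, 14 were intronic, 2 exonic and 6 intergenic.

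Letters of 13 motifs were searched in the same window at each region. The E-box CAGCTG, read by bHLH factors, was held by 7 of the 22 distal regions of the muscle-restricted genes and 19 of the 107 of the others, beside 18.9% of all distal regions. All of the 7 except the *Smarcd3* region chr5:24611983-24612182 were at *Smyd1*. Among them, chr6:71249647-71249920 had summits 939 bp apart, so its window lay outside the region. Windows at either replicate's summit, added after the data were seen, gave 7 of 22 each. In replicate 2, chr6:71249647-71249920 and chr6:71248643-71249191 share a summit, so the same window was counted for both. The TEAD letters were held by 5 of 22 and 14 of 107 (16.4% of all distal regions), and by 5 or 3 of 22 at a single replicate's summit. The GATA letters AGATAA were held by 4 of 22 and 14 of 107 (20.1%), a MEF2 site by 1 of 22 (0 of 22 at replicate 2 summits) and 5 of 107 (4.35%), and the NKX2-5 letters TNAAGTG by 1 of 22 and 8 of 107 (12.9%). Of the 20 start regions, 9 held the SP/KLF letters, or 45.0%, beside 44.8% of all regions at coding starts. With 22 regions in 2 genes, these counts are a description of those genes.

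The members were set beside the genes of their complexes. Of 69 other regulators of the BAF, SMYD, CHD and NuRD, KMT2, HDAC and PRC2 families, 66, or 95.7%, had a shared region at a start. The share of all protein-coding genes was 68.1%. Median fold enrichment of the 66 was 30.5, beside 24.5 for all genes with a start region. The highest was *Hdac4*, at 54.9, and the lowest *Chd3*, at 6.45. The BAF subunit gene *Smarcd2*, the neural remodeller *Chd5* and the Polycomb gene *Phf19* had none at a start. For *Smarcd2*, neither list held a peak in the gene or within 5 kb of it, although the CpG ratio at its start was 0.915. Whether the lists used here are complete at this gene is not known, so the absence does not show that its 9 starts are closed, and the 66 of 69 may be an undercount. The median CpG ratio of the 69 genes was 0.835.

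Within the families, *Smyd1* (19.2) stood with *Smyd2* (18.1), *Smyd3* (20.4) and *Smyd5* (18.0), and below *Smyd4* (36.3). *Smarcd3* (20.4) stood beside *Smarcd1* (23.2), which encodes an alternative BAF60 subunit, and their replicates overlapped. *Smarca4* (31.4) had nearly the value of *Smarca2* (32.3), its alternative ATPase. *Chd4* (25.9) was above *Chd3* (6.45), the other listed NuRD ATPase with a start region.

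*Chd7* (32.8) was below *Chd6* (53.9), *Chd8* (45.3) and *Chd9* (44.5). *Kmt2d* (19.3) was below *Kmt2a* (29.2), *Kmt2b* (49.3) and its closest relative *Kmt2c* (38.3). *Hdac9* (17.7) lay between *Hdac7* (15.0) and *Hdac5* (22.7), far below *Hdac4*. *Hdac2* (37.2) was above *Hdac1* (30.1), *Hdac3* (25.9) and *Hdac8* (16.9), and *Ezh2* (40.7) above *Ezh1* (15.4), the form known to prevail in cells that divide little. In both replicates *Hdac2* exceeded its 3 class I relatives and *Ezh2* exceeded *Ezh1*.

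**Figure D5:**
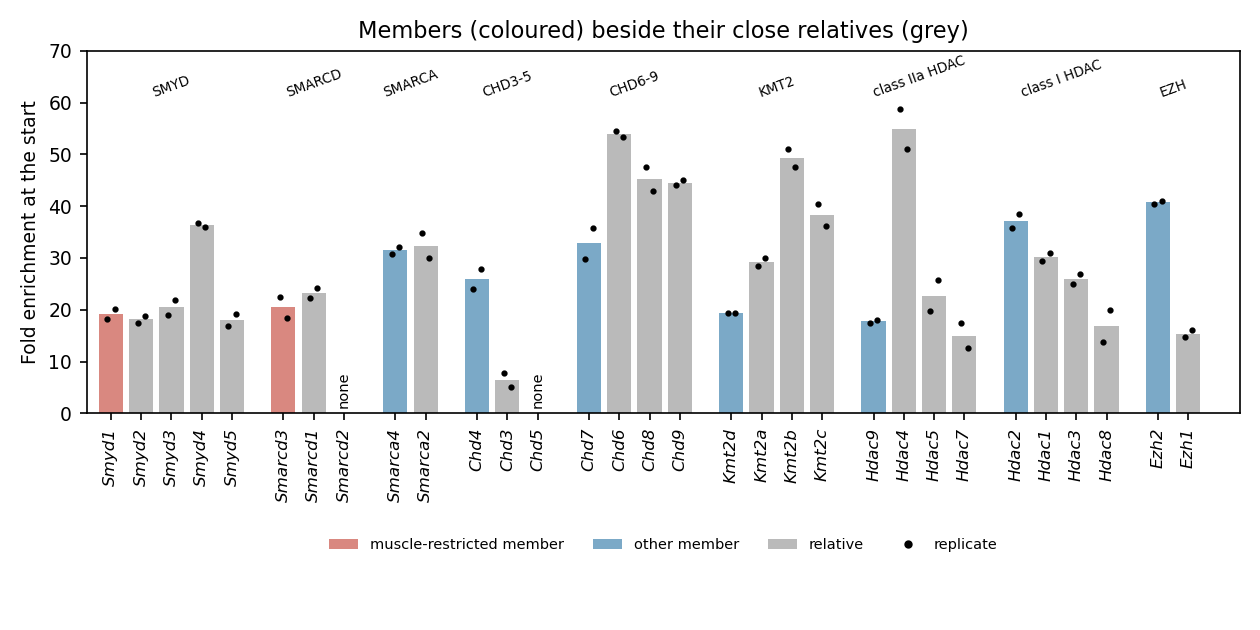
Fold enrichment (linear axis from 0) at the strongest start region of each of the 9 genes (coloured bars) and of its close relatives (grey bars), with the 2 replicates as points and "none" where no shared region lay at a start. *Ezh2* stands at 40.7 beside 15.4 for *Ezh1*, while *Smyd1* is level with *Smyd2*, *Smyd3* and *Smyd5*, and *Smarcd3* with *Smarcd1*.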

How the data were processed

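ATAC-seq was performed on wildtype E11.5 hearts in 2 replicates of 2 hearts. Per the methods and labels, the authors trimmed reads (Trim Galore 0.6.6), mapped them to GRCm38/mm10 (Bowtie2 2.4.2), discarded duplicates and poorly mapped reads (SAMtools 1.12) and called peaks per replicate with MACS2 without a local background. Sites in repeated sequence are therefore underrepresented. The deposited fold enrichment is a ratio at the summit, the deposited −log10 p-value and −log10 q-value belong to the same point, and the authors' score is the −log10 q-value times a constant. The peaks deposited reach a q-value of 0.0194 in replicate 1 and 0.0425 in replicate 2, which differs from the p-value limit of 0.01 in the methods, and the lists were used as deposited. They hold no read totals. Because fold enrichment moves in steps of 1 read, summit reads could be recovered (100% whole within 0.05), with a lowest pileup of 9 reads, and gave Poisson intervals.

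Replicate 1 peaks were trimmed to replicate 2 peaks (bedtools 2.31.1, at least 1 bp) and merged where they touch. Where 1 peak spans several regions, each carries its value. Starts and gene bodies came from GENCODE M21, sequence and added starts from RefSeq GRCm38 (no peak of 232646 ends beyond a chromosome). The members and lists were chosen with earlier results of these data known. The rule named, for all 9 members, every start (with positions for *Smyd1* and in part for *Smarcd3*, otherwise as counts), the highest start region and the 3 highest distal regions, and of 69 other regulators the close relatives, the highest, the lowest and those without a start region. The second distal region of *Smarcd3* was not printed, because the midpoint of its summits lies outside it. For *Smarca4*, the 3 highest distal regions are not reported here one by one. The code recovered 4200 of 4200 overlaps in simulated data. The software was pysam 0.24.0, SciPy 1.17.1, pandas 2.3.3, NumPy 2.4.6 and Matplotlib 3.10.9 under Python 3.11.15. No test was run over members, and 12 alternatives were computed.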

Additional observations from a re-analysis of the deposited data

How the results depend on the processing

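All 9 genes kept a shared region at a start under the 10 alternatives that could change it, although under a reciprocal overlap of 50% *Kmt2d* had it only at an internal start (5.45). Of the 61 annotated starts 33 to 39 had a region, and of the 36 starts of coding transcripts 26 did. The median start fold enrichment of the muscle-restricted genes minus that of the others stayed negative, at -12.9 to -9.51, although *Hdac9* lay below both muscle-restricted genes. A q-value limit of 1e-10 lowered the shared regions to 82, the distal regions to 48 and the difference in regions per 100 kb to 1.09. That difference was 1.08 to 3.37 with either replicate left out, 11.6 with flanks of 10 kb and -0.64 with 100 kb. The difference in the highest distal fold enrichment was 3.39 to 5.43 with either replicate left out, 0.018 with coding transcript starts only, 10.97 with flanks of 10 kb and -4.42 with 100 kb. The differences between the gene groups in surroundings therefore depend on how wide an interval is taken. Depth limits the weakest regions, since the lowest summit holds 9 reads. No paired analysis was possible because both samples belong to 1 group and nothing was compared between samples.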
